A study of Mus musculus with 32 samples.

Results

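The MAP kinase cascade genes are those whose symbol is Map4k, Map3k, Map2k, Mapk or Mapkapk followed by a number and nothing else. Of the 22216 genes in the deposited tables, 43 carry such a symbol: 5 Map4k, 15 Map3k, 7 Map2k, 13 Mapk and 3 Mapkapk genes. RNA sequencing measured their expression, as RPKM, reads scaled to gene length and to library depth, in dendritic cells grown from C57BL/6 mouse bone marrow with the growth factor GM-CSF and harvested at day 9. The dKO cells carried the genotype Lmp7-/-Mecl1-/- and so lacked LMP7 and MECL1, 2 catalytic subunits of the immunoproteasome encoded by Psmb8 and Psmb10; the WT cells were wild type. Both were given LPS (lipopolysaccharide), from the outer membrane of bacteria, which makes dendritic cells mature, at 1 µg/mL for 0, 1, 2 or 6 h, which made 8 groups of 4 libraries. The labels name neither the animals nor the cultures behind the libraries, so p-values measure the spread between libraries, which may be technical.

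In a MAP kinase cascade, a MAP3K phosphorylates and activates a MAP2K, which activates a MAP kinase. Map4k kinases act above the MAP3Ks, and the Mapkapk kinases are substrates of the MAP kinases. The ERK, JNK and p38 branches carry the signal of Toll-like receptors, and in dendritic cells and macrophages TAK1 (Map3k7) and TPL2 (Map3k8) are the MAP3Ks best known for starting them after LPS.

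A member was tested where at least 4 of the 32 libraries reached 1 RPKM, which 36 of the 43 did: all 5 Map4k, 13 of 15 Map3k, all 7 Map2k, 8 of 13 Mapk and all 3 Mapkapk genes. Mapk10, which encodes the neuronal kinase JNK3, was listed at 0 in all libraries. The other 6 stayed below the threshold throughout, with a highest value in any library of 0.55 RPKM for Map3k9, 0.138 for Map3k13, 0.355 for Mapk4, 0.335 for Mapk11, 0.059 for Mapk12 and 0.0364 for Mapk15. Of those tested, 32 reached 1 RPKM in all libraries. Map3k4 did so in 16, Map2k6 in 17 and Map3k12 in 11. Map3k6 did so in 8, all of them WT libraries at 0 or 1 h, so it entered the test only through the groups where it was high. Map3k4, Map2k6 and Map3k12 entered only through libraries at 0 and 1 h and the library labelled dKO 2 h replicate 2. The genotype and LPS values of Map3k6 and the LPS values of these 3 are therefore given as a description with no test, although the counts of called members include them.

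The base coverage over all genes summed to 1.27 to 1.87 Gb per library, and 9188 to 10701 genes reached 1 RPKM. Psmb8 was at most 7.42 RPKM in any dKO library and at least 150 RPKM in every WT library, and Psmb10 at most 17.1 and at least 41.6 RPKM. The groups did not overlap for either gene at any time (exact two-sided permutation p = 0.0286, the smallest that 70 splits of 8 libraries can give). Across all genes, all 16 WT and 11 dKO libraries correlated best with the WT mean of their own LPS time, but 5 dKO libraries lay nearest to another time. These were the libraries labelled dKO 0 h replicate 2 (nearest to WT at 1 h), dKO 1 h replicate 2 (2 h), dKO 2 h replicate 2 (0 h), dKO 2 h replicate 4 (6 h) and dKO 6 h replicate 4 (2 h). They are kept as labelled, and counts and changes that involve dKO cells are also given without these 5 libraries. The markers of dendritic cells were present, with a sum over 7 genes of 6926 to 11994 RPKM in dKO and 9198 to 13446 RPKM in WT libraries.

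Before LPS, each tier was carried by a few genes. RPKM is a value per length, so levels can be set side by side between genes. Among the MAP kinases, Mapk3, which encodes ERK1, was at 186 ± 15.5 RPKM in dKO and 178 ± 2.65 RPKM in WT cells (SD, n = 4 each), 61.8% and 58.0% of the summed level of its tier. Mapk14, which encodes p38 alpha, came next at 38.8 ± 8.98 RPKM in dKO and 39.6 ± 1.19 RPKM in WT cells. The library labelled dKO 0 h replicate 2 had 25.7 RPKM of Mapk14, against 41.8 to 45.9 RPKM in the other 3 dKO libraries. Map2k1, which encodes the ERK kinase MEK1, led the MAP2Ks with 51.3 ± 3.21 RPKM in dKO and 64.3 ± 3.88 RPKM in WT cells. The leading MAP3K in WT cells was Map3k14, which encodes the NF-kappaB-inducing kinase NIK, at 40.5 ± 6.21 RPKM, against 20.4 ± 9.23 RPKM in dKO cells. Over the 4 dKO libraries Map3k3 led with 24.1 ± 3.32 RPKM. Without dKO 0 h replicate 2 the order changed, with a mean of 26.3 RPKM for Map3k11, 25.7 for Map3k3 and 24.2 for Map3k14. In dKO cells Map4k1 (HPK1) had 26.1 ± 2.32 RPKM and Map4k4 25 ± 3.68 RPKM, whereas Map4k4 led in WT cells with 38.8 ± 3.94 RPKM and Map4k1 had 21.5 ± 1.29 RPKM. Mapkapk2, the p38-activated kinase MK2, stood at 80.2 to 92.0 RPKM in WT cells and at 79.0 to 85.2 RPKM in 3 dKO libraries. The library labelled dKO 0 h replicate 2 had 247 RPKM. Its relative Mapkapk3 (MK3) had 64.6 ± 15.3 RPKM in dKO and 80.6 ± 1.49 RPKM in WT cells. The same dKO library had 41.7 RPKM of Mapkapk3, against 70.8 to 73.0 RPKM in the other 3.

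The promoters of 3 members are shown because LPS signals end on factors with known motifs and these genes gave the largest rise at 2 h in WT cells (Mapkapk2), the largest difference above WT in dKO cells (Map3k7) and one of the largest falls after LPS (Map4k1). They are RefSeq windows on GRCm38.p6 from 250 bases before to 50 after the start site, and capitals mark a match to the NF-kappaB motif. The Mapkapk2 window (chr1:131097794-131098093, minus strand) holds none of the 4 motifs searched. The Map3k7 window (chr4:31963857-31964156, plus strand) holds an NF-kappaB match whose first base is at -92. The downstream of 2 Map4k1 windows (chr7:28982604-28982903, plus strand) holds one at -144.
Mapkapk2: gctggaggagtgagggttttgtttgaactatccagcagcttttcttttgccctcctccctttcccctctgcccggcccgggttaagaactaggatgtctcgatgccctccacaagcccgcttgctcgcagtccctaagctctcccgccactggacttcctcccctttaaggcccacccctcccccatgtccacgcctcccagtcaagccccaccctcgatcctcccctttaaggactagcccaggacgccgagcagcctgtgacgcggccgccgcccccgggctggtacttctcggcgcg
Map3k7: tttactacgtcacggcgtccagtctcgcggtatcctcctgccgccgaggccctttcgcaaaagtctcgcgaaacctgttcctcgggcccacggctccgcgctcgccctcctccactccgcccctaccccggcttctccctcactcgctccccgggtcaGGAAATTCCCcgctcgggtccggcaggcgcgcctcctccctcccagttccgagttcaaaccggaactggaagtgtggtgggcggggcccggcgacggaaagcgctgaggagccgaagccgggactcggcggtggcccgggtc
Map4k1: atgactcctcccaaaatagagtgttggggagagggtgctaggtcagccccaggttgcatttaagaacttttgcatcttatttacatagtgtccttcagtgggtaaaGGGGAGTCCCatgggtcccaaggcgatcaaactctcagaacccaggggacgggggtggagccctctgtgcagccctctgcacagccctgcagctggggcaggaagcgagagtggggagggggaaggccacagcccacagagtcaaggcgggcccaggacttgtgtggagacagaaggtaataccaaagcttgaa

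Windows were found for 35 of the 43 members, 47 in all, and were searched on both strands for the NF-kappaB motif, AP-1 (TGANTCA), CRE (TGACGTCA) and the SRF CArG box. NF-kappaB matches lay in windows of Map3k7, Map4k1 and Map4k2, AP-1 matches in Map2k6, Map2k7 and Map3k10, and a CRE match in Mapk10. No member window held more than 1 of these matches, so none overlapped. Over all 32851 windows, 4.51% held an NF-kappaB match, 7.81% AP-1, 1.79% CRE and 1.63% a CArG box, and no member window held the last. A match is a description of these letters, not a bound site.

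Under LPS, Mapkapk2, Map3k8 and Mapk6 rose at all 3 times in WT cells, and Map2k1 and Map3k15 rose at 6 h. Mapk14 and Map4k1 fell most at 6 h among the members tested on their LPS change, and Map3k4 and Map2k6, not tested on it, had WT log2 changes of -2.65 and -2.26 there. The comparison of each LPS time with 0 h asks how the genes respond as the cells mature. In WT cells limma at an adjusted p below 0.05 called 16 of 36 tested members at 1 h (4 higher, 12 lower), 31 at 2 h (5 higher, 26 lower) and 30 at 6 h (5 higher, 25 lower). Of all 11154 genes tested, 52.3%, 79.7% and 75.8% were called at these times, 6.84%, 11.2% and 14.9% higher and 45.5%, 68.5% and 60.9% lower, and of the members 44.4%, 86.1% and 83.3%. The median log2 change of the members was -0.30, -0.75 and -0.67, beside -0.42, -0.73 and -0.65 over all genes. On leaving out the 5 libraries 31, 33 and 33 members were called, beside 79.7%, 89.2% and 88.1% of all genes. Groups of 4 WT libraries did not overlap with 0 h for 28, 33 and 33 members, beside 75.3%, 85.5% and 84.6% of all genes. In dKO cells 16 members were called at 1 h (3 higher, 13 lower), 23 at 2 h (4 higher, 19 lower) and 26 at 6 h (6 higher, 20 lower), beside 49.9%, 62.9% and 74.9% of all genes (5.82%, 9.17% and 14.7% higher, 44.1%, 53.8% and 60.2% lower). The dKO groups did not overlap with 0 h for 6, 1 and 21 members, beside 19.6%, 2.43% and 53.2% of all genes. With the 5 libraries left out 28, 31 and 31 members were called in dKO cells, beside 77.3%, 86.1% and 87.3% of all genes. The dKO count at 1 h was 8 without any 1 of dKO 0 h replicates 1, 3 and 4 or dKO 1 h replicate 2. A fit of the dKO 0 and 2 h libraries alone lost the 8 dKO calls at 2 h among the named members (adjusted p 0.184 to 0.221).

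The deposited scale fixes the total of each library, and on it the median of all genes fell by 0.42, 0.73 and 0.65 on the log2 scale in WT cells at 1, 2 and 6 h. Changes under LPS are therefore read against that shift. "Rose" and "fell" are used here only for members called the same way on the deposited scale, under median-of-ratios scaling and under quantile normalization. The split of called members in WT cells was 8 higher and 3 lower at 1 h, 13 and 11 at 2 h, and 11 and 10 at 6 h under median-of-ratios scaling, where 15.2%, 30.7% and 32.6% of all genes were called higher and 13.1%, 31.1% and 33.8% lower. It was 9 higher and 6 lower, 10 and 16, and 8 and 13 under quantile normalization (15.1%, 25% and 30.3% of all genes higher, 23.1%, 38.5% and 36.6% lower). In dKO cells the splits at 1, 2 and 6 h were 6 higher and 2 lower, 9 and 7, and 15 and 12 under median-of-ratios scaling, beside 12.8%, 22.0% and 31.7% of all genes higher and 11.2%, 18.5% and 33.8% lower. Under quantile normalization they were 5 and 5, 7 and 8, and 10 and 14, beside 10.5%, 17.4% and 27.9% higher and 16.2%, 23.2% and 36.5% lower. For 5, 10 and 9 of the WT members called lower at 1, 2 and 6 h the sign turned under a scaling, and so it did for 5, 3 and 5 of the dKO members called lower. Mapk3 and Map2k2, called lower on the deposited scale at 2 and 6 h, were called higher under one, and so were Map4k3 at 2 h and Mapkapk5 at 6 h. Map2k2 was also called higher under a scaling in dKO cells at 6 h.

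Mapkapk2 and Map3k8 rose most at 1 and 2 h in WT cells. In dKO cells Mapkapk2 had 79.0, 247, 79.9 and 85.2 RPKM at 0 h, 296, 407, 261 and 260 RPKM at 1 h, 418, 78.1, 372 and 206 RPKM at 2 h, and 195, 179, 154 and 444 RPKM at 6 h. In WT cells it had 83.0, 80.2, 83.8 and 92.0 RPKM at 0 h, 238, 225, 220 and 211 RPKM at 1 h, 352, 351, 317 and 335 RPKM at 2 h, and 151, 160, 158 and 147 RPKM at 6 h. The WT groups did not overlap between 0 h and any later time and peaked at 2 h, while in dKO cells replicate 2 at 0 h, replicates 2 and 4 at 2 h and replicate 4 at 6 h, all among the 5 libraries, stood far from the rest of their groups. The WT log2 change was 1.39 ± 0.37 at 1 h, 1.99 ± 0.37 at 2 h and 0.86 ± 0.37 at 6 h (adjusted p = 0.00404, 3.54e-05 and 0.0363). The call at 6 h was lost without any 1 of WT 0 h replicates 1, 2 and 3 or the 4 WT 6 h libraries (adjusted p 0.0522 to 0.0656). It was also lost with no filter on low values (0.0538) and with a block for the replicate number within genotype (0.0676). It held without the 5 libraries and in a fit of the WT 0 and 6 h libraries alone. The SE pools the spread of all groups, that of the dKO libraries far from the rest of their groups included. In dKO cells the change was 1.48 ± 0.37 at 1 h, 1.05 ± 0.37 at 2 h and 1.04 ± 0.37 at 6 h. Without the 5 libraries it was 1.73, 2.27 and 1.10. The dKO call at 2 h was lost without any 1 of dKO 0 h replicates 1, 3 and 4 or dKO 2 h replicates 1 and 3 (adjusted p 0.0538 to 0.0912), and that at 6 h without dKO 6 h replicate 4 (0.0847).

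Map3k8 encodes TPL2, the MAP3K that starts the ERK branch after LPS. In dKO cells it had 11.3, 29.8, 10.4 and 8.93 RPKM at 0 h, 27.6, 30.1, 28.5 and 27.0 RPKM at 1 h, 30.6, 10.3, 36.9 and 34.1 RPKM at 2 h, and 42.5, 42.4, 49.2 and 29.9 RPKM at 6 h. In WT cells it had 12.7, 11.3, 13.5 and 12 RPKM at 0 h, 37.9, 37.8, 36.5 and 38.0 RPKM at 1 h, 47.3, 48.2, 50.7 and 46.3 RPKM at 2 h, and 52.1, 56.4, 56.7 and 51.4 RPKM at 6 h. Each later WT group lay wholly above the one before. The WT log2 change was 1.57, 1.92 and 2.09 (SE 0.28 each; adjusted p = 0.000229, 5.6e-06 and 5.61e-07), and the dKO change 1.05, 0.89 and 1.56. Without the 5 libraries the dKO change was 1.40, 1.67 and 2.08. The dKO call at 2 h was lost without dKO 0 h replicate 4 (or dKO 2 h replicate 3), at an adjusted p of 0.0516 to 0.0534. From 1 h on Map3k8 was the leading MAP3K in both genotypes, at 26.4% to 34.4% of the summed tier in dKO and 27.7% to 42.5% in WT cells.

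**Figure D1:**
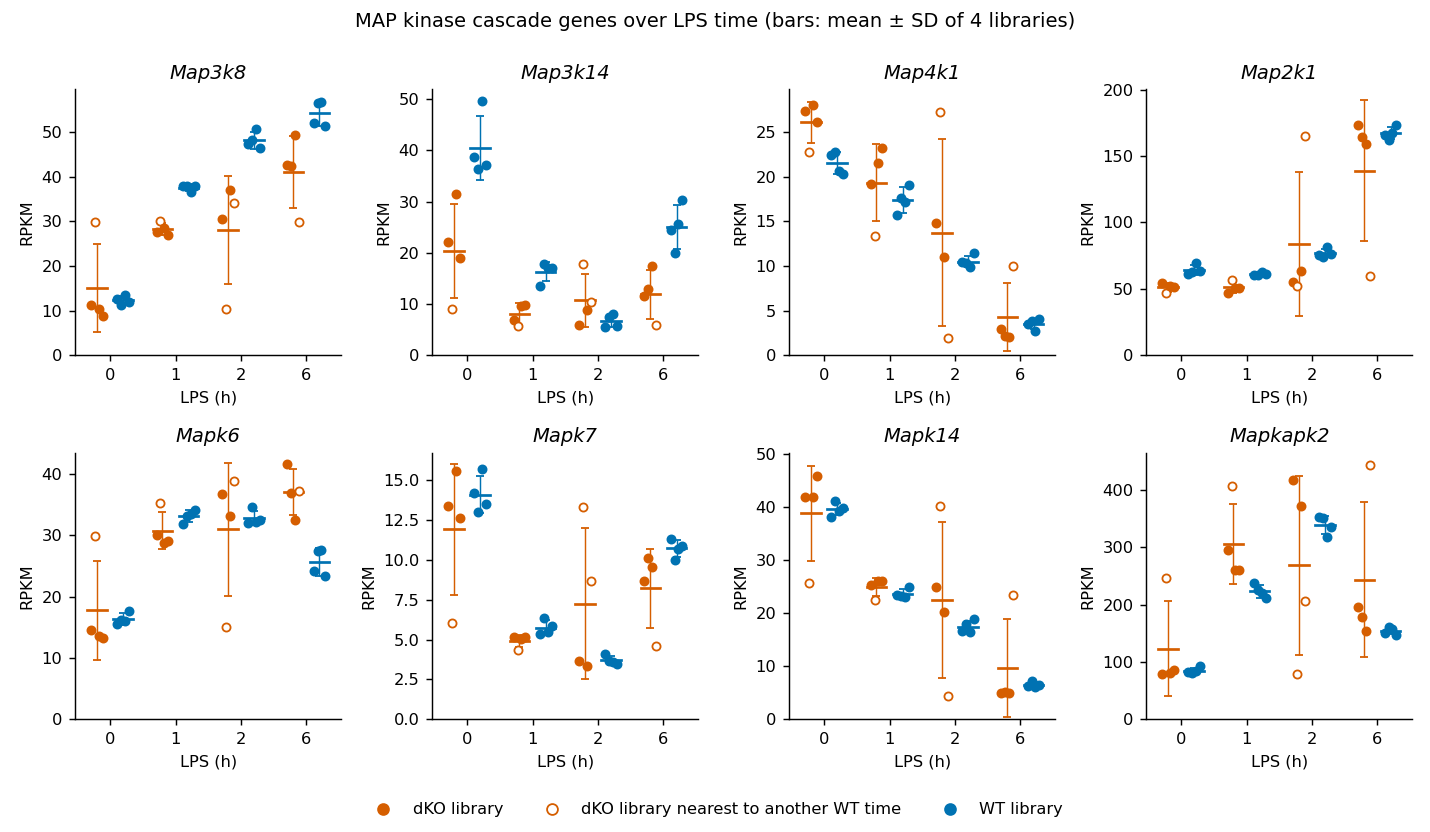
Expression of 8 members with a large LPS response, in RPKM on linear axes from 0, at 0, 1, 2 and 6 h of LPS, with a point for each library (dKO left of WT) and bars for the mean ± SD of 4 libraries. Open symbols are the 5 dKO libraries nearest to another LPS time; Mapkapk2 peaks at 2 h in WT cells (317 to 352 RPKM), and Map3k8 is highest at 6 h (51.4 to 56.7 RPKM).

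Other members rose at particular times. Mapk6 encodes the atypical MAP kinase ERK3. In dKO cells it had 14.6, 29.9, 13.5 and 13.2 RPKM at 0 h, 30.0, 35.3, 28.7 and 29.1 RPKM at 1 h, 36.8, 15.1, 33.2 and 38.8 RPKM at 2 h, and 41.6, 36.9, 32.5 and 37.3 RPKM at 6 h. In WT cells Mapk6 had 15.5, 16.2, 16.1 and 17.7 RPKM at 0 h, 31.8, 33.1, 33.5 and 34.1 RPKM at 1 h, 32.0, 34.6, 32.2 and 32.5 RPKM at 2 h, and 24.1, 27.5, 27.6 and 23.4 RPKM at 6 h. Every WT value after LPS lay above every WT value at 0 h, and the library labelled dKO 0 h replicate 2 lay within the range of the dKO libraries at 1 h. Mapk6 rose at all 3 WT times, with log2 changes of 0.99, 0.98 and 0.63, and at all 3 dKO times, with 0.85, 0.78 and 1.12 (1.06, 1.31 and 1.39 without the 5 libraries).

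Map2k1 rose late. In dKO cells Map2k1 had 54.8, 47.1, 52.1 and 51.1 RPKM at 0 h, 47.0, 56.9, 50.4 and 50.6 RPKM at 1 h, 55.2, 52.6, 63.5 and 165 RPKM at 2 h, and 173, 164, 159 and 59.9 RPKM at 6 h. In WT cells Map2k1 had 60.9, 63.1, 69.9 and 63.4 RPKM at 0 h, 60.5, 60.3, 62.4 and 61.5 RPKM at 1 h, 75.5, 74.1, 81.4 and 76.6 RPKM at 2 h, and 166, 162, 167 and 173 RPKM at 6 h. The WT libraries at 6 h lay above all other WT libraries, while at the last 2 times the libraries labelled dKO 2 h replicate 4 and dKO 6 h replicate 4 stood far from their groups, the first high and the second low. Its log2 change at 6 h was 1.32 ± 0.26 in dKO (adjusted p = 7.08e-05; 1.64 without the 5 libraries) and 1.37 ± 0.26 in WT cells (3.52e-05). Map2k1 then made up 58.6% of the summed MAP2K level in dKO and 67.2% in WT cells. The ratio of Map2k1 to Map2k2, which encodes the other ERK kinase MEK2, was 7.81 to 9.01 in the other 3 dKO libraries and 6.62 to 7.23 in WT cells at 6 h, and 1.70 to 1.87 in 3 dKO and 1.89 to 2.20 in 4 WT libraries at 0 h.

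Map3k5 and Map3k15 encode related stress-activated MAP3Ks, ASK1 and a relative of it. In dKO cells Map3k5 had 3.32, 2.62, 3.48 and 3.73 RPKM at 0 h, 2.68, 9.97, 2.46 and 2.24 RPKM at 1 h, 9.38, 3.91, 11.1 and 5.97 RPKM at 2 h, and 5.32, 6.07, 4.25 and 12.6 RPKM at 6 h. In WT cells Map3k5 had 3.77, 4.14, 4.26 and 3.99 RPKM at 0 h, 3.31, 2.77, 2.40 and 3.28 RPKM at 1 h, 8.82, 9.62, 10.2 and 11.7 RPKM at 2 h, and 3.90, 5.24, 4.37 and 3.57 RPKM at 6 h. The WT libraries at 2 h lay above those at every other time, and among dKO libraries replicate 2 at 1 h and replicate 4 at 6 h stood high in their groups. Map3k5 rose at 2 h alone among WT times (log2 change 1.22 ± 0.32, adjusted p = 0.00132). In dKO cells its changes at 2 and 6 h were 1.01 ± 0.32 (adjusted p = 0.0108) and 0.89 ± 0.32 (0.0146), and 1.42 and 0.50 without the 5 libraries. The first was lost without dKO 2 h replicate 3 (0.0549). In dKO cells Map3k15 had 3.30, 3.04, 2.81 and 2.52 RPKM at 0 h, 2.84, 2.26, 3.38 and 2.37 RPKM at 1 h, 2.63, 2.80, 2.54 and 3.90 RPKM at 2 h, and 4.86, 5.22, 5.85 and 2.08 RPKM at 6 h. In WT cells Map3k15 had 4.10, 4.78, 4.94 and 4.71 RPKM at 0 h, 5.63, 4.66, 6.39 and 6.33 RPKM at 1 h, 4.89, 3.52, 5.45 and 5.78 RPKM at 2 h, and 11.8, 9.46, 11.1 and 12.1 RPKM at 6 h. The 4 WT libraries at 6 h were the highest of all 32, and 3 of the 4 dKO libraries at 6 h lay above the dKO libraries at the earlier times. At 6 h Map3k15 rose by 0.47 ± 0.20 in dKO (adjusted p = 0.0352; 0.79 without the 5 libraries) and by 1.18 ± 0.20 in WT cells (1.13e-05). The dKO call was lost without any 1 of dKO 0 h replicates 3 and 4 or dKO 6 h replicates 1, 2 and 3 (0.0655 to 0.151).

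The most negative log2 changes were those of Map3k4, Mapk14, Map3k14, Map4k1 and Map2k6. In dKO cells Mapk14 had 41.9, 25.7, 41.8 and 45.9 RPKM at 0 h, 25.2, 22.4, 26.1 and 26.1 RPKM at 1 h, 24.9, 40.1, 20.2 and 4.44 RPKM at 2 h, and 4.95, 5.05, 4.96 and 23.5 RPKM at 6 h. In WT cells Mapk14 had 38.2, 41.1, 39.3 and 39.8 RPKM at 0 h, 23.5, 23.2, 23.0 and 25 RPKM at 1 h, 16.6, 18.0, 16.4 and 18.8 RPKM at 2 h, and 6.29, 7.23, 6.07 and 6.42 RPKM at 6 h. Each later WT group lay wholly below the one before, and the dKO groups at 0 and 6 h do not overlap even with replicate 4 at 6 h, the library nearest to WT at 2 h. The log2 change at 6 h was -2.27 ± 0.41 in dKO (adjusted p = 2.97e-05; -2.99 without the 5 libraries) and -2.52 ± 0.41 in WT cells (5.91e-06). Mapk13, which encodes p38 delta, had a WT log2 change of 0.04 ± 0.14 at 6 h. The ratio of Mapk14 to Mapk13 was thus 0.449 to 0.570 in WT libraries at 6 h, against 2.98 to 3.64 at 0 h.

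Map2k6 and Map2k3 encode the main p38 activators. In dKO cells Map2k6 had 3.02, 2.28, 1.5 and 3.30 RPKM at 0 h, 3.17, 1.03, 3.33 and 3.03 RPKM at 1 h, 0.847, 2.18, 0.864 and 0.112 RPKM at 2 h, and 0.232, 0, 0.0523 and 0.547 RPKM at 6 h. In WT cells Map2k6 had 2.06, 2.03, 2.13 and 1.89 RPKM at 0 h, 2.04, 1.48, 1.68 and 1.56 RPKM at 1 h, 0.523, 0.754, 0.468 and 0.441 RPKM at 2 h, and 0, 0, 0.0485 and 0.0558 RPKM at 6 h. The values at 6 h were the lowest of each genotype save for 1 dKO library at 2 h, and 3 of the 8 libraries at 6 h were listed at 0. The log2 change at 6 h was -2.11 ± 0.31 in dKO (-2.35 without the 5 libraries) and -2.26 ± 0.31 in WT cells. In dKO cells Map2k3 had 42.1, 28.0, 43.3 and 43.3 RPKM at 0 h, 30.7, 20.8, 29.7 and 32.2 RPKM at 1 h, 22.9, 39.0, 22.6 and 20.0 RPKM at 2 h, and 19.1, 18.3, 16.4 and 20.6 RPKM at 6 h. In WT cells Map2k3 had 51.4, 51.4, 49.8 and 46.7 RPKM at 0 h, 41.5, 43.7, 45.2 and 44.1 RPKM at 1 h, 26.7, 29.3, 27.8 and 29.8 RPKM at 2 h, and 23.9, 24.1, 20.8 and 19.8 RPKM at 6 h. In WT cells each later group lay wholly below the one before, and the libraries labelled dKO 0 h replicate 2 and dKO 2 h replicate 2 stood below and above their groups. Map2k3 fell at 6 h, by 1.04 in dKO (1.24 without the 5 libraries) and 1.16 in WT cells on the log2 scale.

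Map3k4 encodes the p38- and JNK-activating kinase MEKK4. In dKO cells Map3k4 had 4.91, 4.08, 5.71 and 5.82 RPKM at 0 h, 3.84, 0.737, 3.80 and 3.76 RPKM at 1 h, 0.941, 6.16, 0.681 and 0.876 RPKM at 2 h, and 0.616, 0.566, 0.702 and 0.409 RPKM at 6 h. In WT cells Map3k4 had 6.09, 6.37, 6.66 and 6.91 RPKM at 0 h, 4.38, 4.31, 4.20 and 3.79 RPKM at 1 h, 0.663, 0.644, 0.701 and 0.852 RPKM at 2 h, and 0.848, 0.466, 0.549 and 0.634 RPKM at 6 h. The WT libraries at 2 and 6 h overlapped and lay wholly below those at 0 and 1 h, while replicate 2 was the lowest dKO library at 1 h and the highest at 2 h. The log2 change at 2 and 6 h was -1.49 and -2.39 in dKO (-2.19 and -2.41 without the 5 libraries) and -2.53 and -2.65 in WT cells. In dKO cells Map3k14 had 22.2, 9.09, 31.4 and 19.0 RPKM at 0 h, 6.95, 5.67, 9.73 and 9.87 RPKM at 1 h, 5.90, 17.9, 8.81 and 10.4 RPKM at 2 h, and 11.6, 12.9, 17.5 and 5.91 RPKM at 6 h. In WT cells Map3k14 had 38.8, 36.3, 49.7 and 37.2 RPKM at 0 h, 13.6, 17.8, 17 and 17 RPKM at 1 h, 5.54, 7.48, 8.09 and 5.84 RPKM at 2 h, and 24.5, 19.9, 25.6 and 30.3 RPKM at 6 h. No 2 WT groups overlapped, with the lowest level at 2 h. The log2 change there was -0.88 ± 0.31 in dKO (adjusted p = 0.017; -1.65 without the 5 libraries) and -2.51 ± 0.31 in WT cells (1.49e-06). The dKO call was lost under both other scalings and without any 1 of dKO 0 h replicates 1 and 3 or dKO 2 h replicate 1 (0.0513 to 0.0885).

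Mapk7, the MAP kinase ERK5, followed the same order of times. In dKO cells Mapk7 had 13.4, 6.04, 15.6 and 12.6 RPKM at 0 h, 5.15, 4.37, 5.03 and 5.17 RPKM at 1 h, 3.63, 13.3, 3.32 and 8.70 RPKM at 2 h, and 8.66, 10.1, 9.54 and 4.61 RPKM at 6 h. In WT cells Mapk7 had 14.2, 13.0, 15.7 and 13.5 RPKM at 0 h, 5.33, 6.34, 5.46 and 5.85 RPKM at 1 h, 4.06, 3.68, 3.60 and 3.44 RPKM at 2 h, and 11.3, 10.0, 10.7 and 10.9 RPKM at 6 h. The WT groups were again apart from each other and lowest at 2 h, where replicates 2 and 4 were the high dKO libraries. The log2 change at 2 h was -0.82 ± 0.29 in dKO (adjusted p = 0.018; -1.85 without the 5 libraries) and -1.8 ± 0.29 in WT cells (9.42e-06). The dKO call was lost under both other scalings and without any 1 of dKO 0 h replicates 1 and 3 or dKO 2 h replicates 1 and 3 (0.0547 to 0.109). In dKO cells Map4k1 had 27.3, 22.8, 28.0 and 26.1 RPKM at 0 h, 19.2, 13.3, 21.5 and 23.2 RPKM at 1 h, 14.8, 27.2, 11 and 1.98 RPKM at 2 h, and 2.93, 2.12, 2.07 and 10.0 RPKM at 6 h. In WT cells Map4k1 had 22.4, 22.8, 20.6 and 20.3 RPKM at 0 h, 15.7, 17.6, 17.1 and 19.1 RPKM at 1 h, 10.4, 10.3, 9.90 and 11.4 RPKM at 2 h, and 3.51, 3.81, 2.68 and 4.03 RPKM at 6 h. Map4k1, whose promoter is printed above, stepped down with each WT group wholly below the one before, and at 2 h replicate 2 was the highest and replicate 4 the lowest dKO library. Its 6 h log2 change was -2.75 ± 0.43 in dKO (adjusted p = 8.22e-06; -3.28 without the 5 libraries) and -2.47 ± 0.43 in WT cells (1.45e-05).

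Map3k3, the MAP3K MEKK3, and Map3k11, the mixed-lineage kinase MLK3, had their WT minimum before 6 h. In dKO cells Map3k3 had 24.2, 19.5, 25.7 and 27.1 RPKM at 0 h, 16.6, 9.19, 19.4 and 18.9 RPKM at 1 h, 9.23, 26.3, 7.75 and 11.7 RPKM at 2 h, and 15.3, 12.5, 14.0 and 7.88 RPKM at 6 h. In WT cells Map3k3 had 26.9, 27.8, 27.7 and 26.6 RPKM at 0 h, 20.0, 19.9, 19.5 and 19.2 RPKM at 1 h, 8.16, 8.97, 7.38 and 7.64 RPKM at 2 h, and 18.8, 17.8, 17.5 and 19.7 RPKM at 6 h. The WT libraries at 2 h lay below all others, and the library labelled dKO 2 h replicate 2 lay within the range of the dKO libraries at 0 h. The log2 change at 2 h was -0.94 ± 0.24 in dKO (adjusted p = 0.00413; -1.54 without the 5 libraries) and -1.70 ± 0.24 in WT cells (4.69e-06). In dKO cells Map3k11 had 23.9, 11.4, 29.4 and 25.7 RPKM at 0 h, 9.78, 14.6, 10.6 and 12 RPKM at 1 h, 12.7, 23.5, 15.5 and 14.6 RPKM at 2 h, and 12.6, 15.4, 14.3 and 18.1 RPKM at 6 h. In WT cells Map3k11 had 26.9, 27.1, 28.4 and 26.1 RPKM at 0 h, 14.8, 13.9, 13.8 and 13.5 RPKM at 1 h, 12.6, 14.4, 13.9 and 13.9 RPKM at 2 h, and 21.5, 16.5, 19.6 and 22.9 RPKM at 6 h. Every WT library at 0 h lay above every later one, and the libraries labelled dKO 0 h replicate 2 and dKO 2 h replicate 2 were far from their groups. At 1 h the log2 change of Map3k11 was -0.85 ± 0.20 in dKO (adjusted p = 0.00518; -1.24 without the 5 libraries; not called under median-of-ratios scaling or in a fit of the groups compared) and -0.93 ± 0.20 in WT cells (0.000828).

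Map3k12, the kinase DLK, and Map4k2, a kinase above the MAP3Ks, were lower late. In dKO cells Map3k12 had 1.88, 0.868, 1.66 and 1.64 RPKM at 0 h, 1.25, 0.278, 1.08 and 1.12 RPKM at 1 h, 0.486, 1.44, 0.278 and 0.212 RPKM at 2 h, and 0.191, 0.175, 0.131 and 0.231 RPKM at 6 h. In WT cells Map3k12 had 1.60, 1.79, 2.19 and 1.70 RPKM at 0 h, 0.988, 0.833, 0.945 and 0.989 RPKM at 1 h, 0.266, 0.105, 0.356 and 0.508 RPKM at 2 h, and 0.105, 0.114, 0.231 and 0.178 RPKM at 6 h. The WT libraries at 0 h lay above all later ones and those at 2 and 6 h overlapped. The log2 change at 6 h was -1.53 ± 0.25 in dKO (-1.74 without the 5 libraries) and -1.82 ± 0.25 in WT cells. In dKO cells Map4k2 had 21.6, 18.1, 21.2 and 19.7 RPKM at 0 h, 17.1, 13.5, 17.5 and 18.7 RPKM at 1 h, 10.9, 21.3, 9.77 and 8.0 RPKM at 2 h, and 7.24, 9.24, 6.14 and 11 RPKM at 6 h. In WT cells Map4k2 had 26.1, 25.8, 24.3 and 23.4 RPKM at 0 h, 20.9, 20.7, 19.1 and 20.0 RPKM at 1 h, 13.4, 16.6, 13.3 and 12.7 RPKM at 2 h, and 9.66, 9.52, 9.38 and 9.38 RPKM at 6 h. The WT groups were apart at all 4 times, each below the one before. Map4k2 fell at 6 h by 1.24 in dKO (1.42 without the 5 libraries) and 1.35 in WT cells on the log2 scale. In WT cells Map3k1, Map3k3, Map2k7 and Mapk9 fell at 2 h, and Map4k2 and Map3k1 fell at 6 h, by log2 changes between -1.06 and -1.70.

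**Figure D2:**
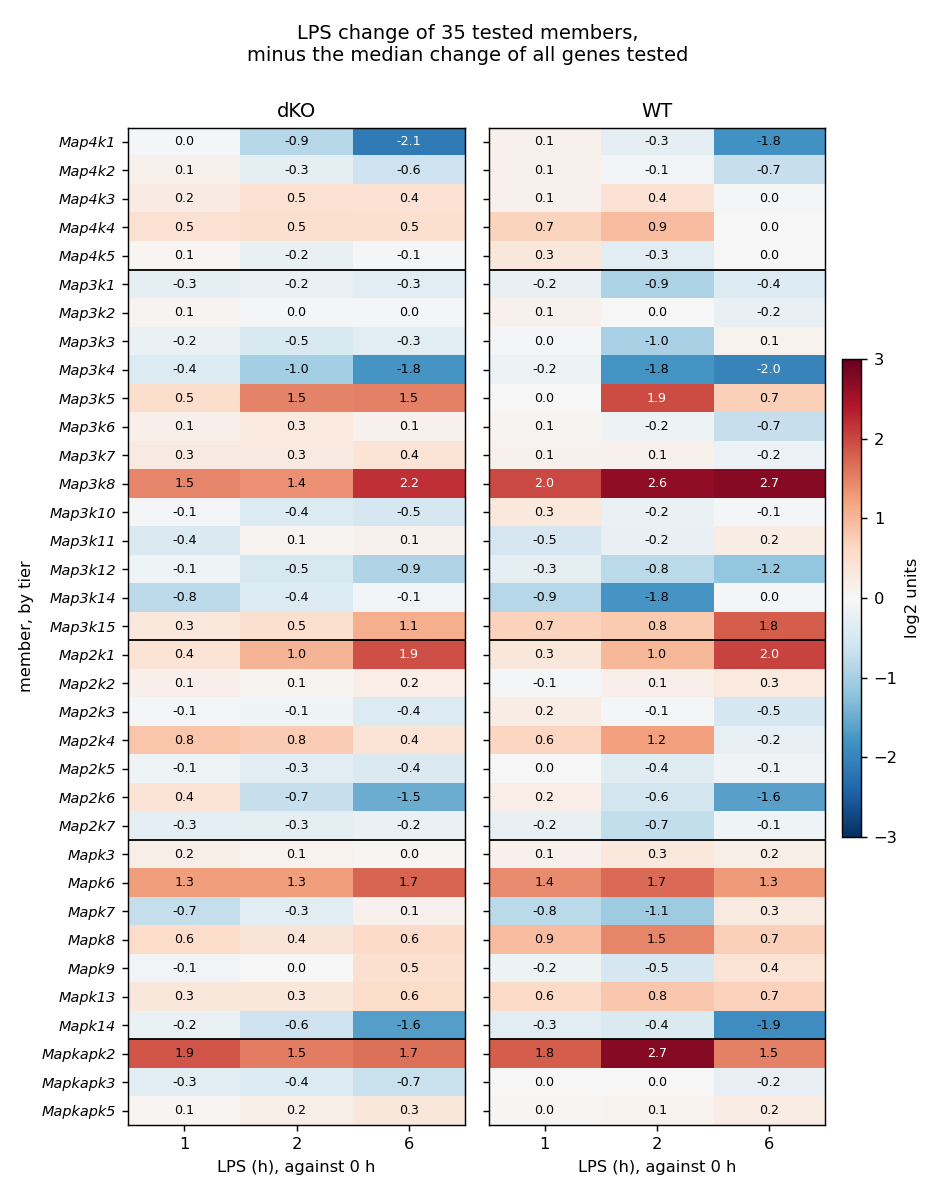
Log2 change against 0 h, minus the median change of all genes tested, for 35 of the 36 tested members (down the page, by tier) at 1, 2 and 6 h of LPS in dKO cells (left) and WT cells (right), as colour and value. Map3k8, Mapk6 and Mapkapk2 are above 0 in all columns, and Map4k1, Map3k4, Map2k6 and Mapk14 are the lowest at 6 h in both genotypes.

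Over the 4 times Mapk13, Map3k15, Map4k4 and Mapkapk3 were lower in dKO cells and Map3k7 was higher. The genotype comparison asks what the cells express when LMP7 and MECL1 are missing. Averaged over the 4 times, 14 of 36 tested members were called, 2 higher and 12 lower in dKO cells, where 31.2% of all genes were called, 7.73% higher and 23.4% lower. The median log2 change was -0.08 over the members and -0.10 over all genes. In this mean every time counts equally and so does every library, so its value does not depend on which dKO library carries which time label, although its error does. On leaving out the 5 libraries 25 members were called, beside 61.4% of all genes. Map3k7 and Map4k3 were higher on all 3 scalings, and Map4k4, Map3k10, Map3k14, Map3k15, Map2k3, Mapk13 and Mapkapk3 lower. Map3k6, which the count of lower members includes, entered only through WT libraries. The calls on Map4k2, Map3k8, Mapk8 and Mapkapk5 were lost under a scaling, and the split of called members was 5 higher and 8 lower under both, beside 15.8% and 16.3% of all genes under median-of-ratios scaling and 17.3% and 16.5% under quantile normalization. Those on Map4k2 and Mapkapk5 were also lost on leaving out single libraries. For Map4k2 (-0.26 ± 0.09, adjusted p = 0.0346; -0.29 with the 5 libraries left out) these were WT 0 h replicate 1, WT 2 h replicate 2, dKO 0 h replicate 2, dKO 1 h replicate 2, dKO 2 h replicates 1, 3 and 4 and dKO 6 h replicates 1 and 3 (adjusted p 0.0506 to 0.0626). For Mapkapk5 (-0.20 ± 0.07, adjusted p = 0.0285; -0.18 with the 5 left out) they were WT 2 h replicate 4 and dKO 2 h replicate 1 (0.0529 and 0.0546).

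Time by time, 4 members were called at 0 h, all lower, beside 6.84% of all genes (0.932% higher, 5.91% lower). At 1 h 8 were called (1 higher, 7 lower), beside 10.9% of all genes (1.84% and 9.02%), and at 2 h 8 (2 higher, 6 lower), beside 12.4% (5.15% and 7.24%). At 6 h 9 were called (3 higher, 6 lower), beside 14.8% (4.55% and 10.2%). Under median-of-ratios scaling the splits at 0, 1, 2 and 6 h were 1 higher and 2 lower, 2 and 7, 4 and 7, and 4 and 6, beside 1.79%, 4.19%, 8.55% and 8.22% of all genes higher and 3.07%, 6.27%, 9.73% and 8.02% lower. Under quantile normalization they were 1 and 4, 2 and 6, 4 and 5, and 4 and 6, beside 3.23%, 4.53%, 10.2% and 7.51% higher and 4.18%, 6.25%, 8.72% and 8.51% lower. With the 5 libraries left out the counts were 14, 21, 18 and 21, beside 26.2%, 39.2%, 33.1% and 46.9% of all genes. The count at 1 h was 5 without WT 1 h replicate 2 or 3 and 4 without dKO 1 h replicate 2, and the count at 2 h was 5 without WT 2 h replicate 3 or 4. A fit of the 2 h libraries alone called 1 member there, Mapk13 (adjusted p = 0.0288), with 0.0743 for Map4k4 and 0.0982 for Mapk8. Groups did not overlap for 14, 19, 7 and 14 members at 0, 1, 2 and 6 h, beside 26.5%, 32.1%, 13.4% and 31.1% of all genes. Mapk13 was lower at all 4 times, where 2.75% of all genes were called in one direction at every time. Map3k6 was also called lower at each time, a call its entry through WT libraries favoured. With the 5 left out 7 members were called in one direction at every time (11.4% of all genes). Map3k7 was higher, Map3k8, Map3k15, Map2k3, Mapk13 and Mapkapk3 were lower, and the other was Map3k6. In bulk RNA, fewer cells of a type and less RNA per cell cannot be told apart.

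Among the MAP kinases, Mapk13 was lower in dKO cells throughout. It had 7.17, 6.64, 8.78 and 4.79 RPKM in dKO cells at 0 h, 6.85, 5.54, 6.68 and 6.65 RPKM at 1 h, 6.58, 5.47, 7.35 and 5.18 RPKM at 2 h, and 6.34, 6.92, 7.47 and 4.98 RPKM at 6 h. In WT cells it had 11.2, 13.8, 12.3 and 10.9 RPKM at 0 h, 13.5, 13.9, 12.6 and 13.5 RPKM at 1 h, 14.6, 12.8, 11.9 and 11.6 RPKM at 2 h, and 14.0, 12.7, 11.6 and 11.3 RPKM at 6 h. All 16 dKO values, at any time and with the 5 libraries among them, lay below all 16 WT values. The log2 change over the 4 times was -0.93 ± 0.07 (adjusted p = 3.37e-11; -0.84 without the 5 libraries), and it lay between -0.80 and -1.01 at the single times. No call on Mapk13 was lost when any 1 library was left out. At 0 h the call was lost under median-of-ratios scaling. Mapk14, whose gene lies beside Mapk13 on chromosome 17, was at 0.05 ± 0.20 (adjusted p = 0.884). Both are about as far from Psmb8, at 5.42 Mb for Mapk13 and 5.45 Mb for Mapk14.

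Mapk8, which encodes JNK1, separated the genotypes at 2 h. In dKO cells it had 1.92, 2.74, 1.79 and 1.88 RPKM at 0 h, 2.74, 2.54, 2.05 and 2.09 RPKM at 1 h, 2.10, 2.01, 1.81 and 1.76 RPKM at 2 h, and 2.27, 2.23, 1.51 and 1.94 RPKM at 6 h. In WT cells it had 1.89, 1.85, 2.03 and 2.28 RPKM at 0 h, 3.08, 3.06, 2.84 and 3.25 RPKM at 1 h, 3.46, 3.44, 3.91 and 3.96 RPKM at 2 h, and 2.21, 2.30, 1.97 and 2.07 RPKM at 6 h. Every WT value at 1 and 2 h lay above every dKO value at any time. The log2 change between genotypes at 2 h was -0.79 ± 0.13 (adjusted p = 6.31e-05; -0.77 without the 5 libraries), called under each scaling and without any 1 library. The call was lost in a fit of the 2 h libraries alone (0.0982). Under LPS Mapk8 rose in WT cells, by 0.50 ± 0.13 at 1 h (adjusted p = 0.00306) and 0.74 ± 0.13 at 2 h (1.73e-05), while the dKO changes were 0.15 ± 0.13 and -0.08 ± 0.13 (0.31 and 0.566). The difference between these responses is given further on. Mapk9, the other JNK gene detected, was at 0.04 ± 0.13 between genotypes over the 4 times.

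**Figure D3:**
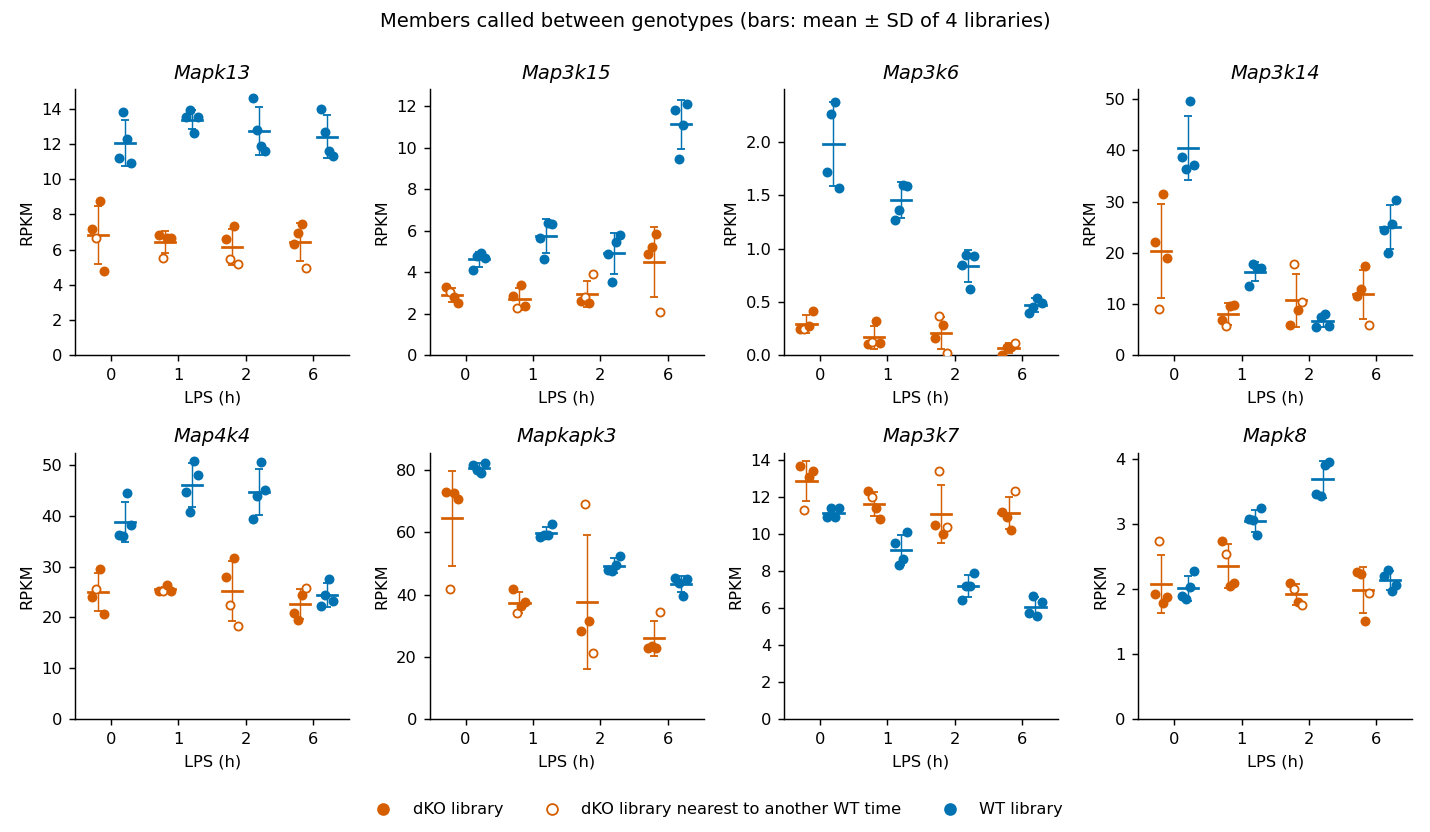
Expression in RPKM, on linear axes from 0, of 8 members called between genotypes, with a point for each library at 0, 1, 2 and 6 h of LPS, dKO left of WT, and bars for the mean ± SD of 4 libraries. Open symbols are the 5 dKO libraries nearest to another LPS time; for Mapk13 all dKO points (4.79 to 8.78 RPKM at 0 h) lie below all WT points (10.9 to 13.8 RPKM at 0 h).

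At the MAP3K level, over the 4 times Map3k7 was higher in dKO cells and Map3k10, Map3k14 and Map3k15 were lower on all 3 scalings. Map3k8 was called lower on the deposited scale alone, and Map3k6 is described with no test. Map3k7, whose promoter is printed above, had 13.7, 11.3, 13.1 and 13.4 RPKM in dKO cells against 10.9, 11.4, 10.9 and 11.4 RPKM in WT cells at 0 h. It had 12.3, 12, 11.4 and 10.8 RPKM in dKO against 9.49, 8.32, 8.63 and 10.1 RPKM in WT cells at 1 h, and 10.5, 13.4, 10.0 and 10.4 RPKM against 6.45, 7.21, 7.22 and 7.89 RPKM in WT cells at 2 h. At 6 h dKO cells had 11.2, 10.9, 10.2 and 12.3 RPKM, against 5.74, 6.67, 5.56 and 6.33 RPKM in WT cells. The groups overlapped at 0 h alone, through the library labelled dKO 0 h replicate 2. The log2 change was 0.19, 0.34, 0.58 and 0.83 at the 4 times (SE 0.10 each; adjusted p = 0.3, 0.0282, 0.000164 and 1.09e-06), and 0.48 ± 0.05 over all (1.11e-08). Without the 5 libraries these were 0.25, 0.32, 0.49, 0.78 and 0.46. The call at 1 h was lost without any 1 of WT 1 h replicates 2 and 3 or dKO 1 h replicates 1 and 2 (adjusted p 0.0739 to 0.105). That at 2 h was lost in a fit of the 2 h libraries alone (0.168).

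Map3k6, which encodes ASK2, a partner of ASK1, was low in all cells. It had 0.244, 0.246, 0.277 and 0.420 RPKM in dKO against 1.72, 2.26, 2.37 and 1.57 RPKM in WT cells at 0 h, and 0.106, 0.125, 0.325 and 0.121 RPKM against 1.27, 1.36, 1.60 and 1.59 RPKM in WT cells at 1 h. At 2 h it had 0.164, 0.366, 0.289 and 0.0273 RPKM in dKO against 0.847, 0.942, 0.627 and 0.932 RPKM in WT cells, and at 6 h 0, 0.0798, 0.0747 and 0.115 RPKM against 0.394, 0.456, 0.542 and 0.494 RPKM in WT cells. The groups did not overlap at any time. The log2 change over the 4 times was -1.22 (-1.21 without the 5 libraries) with a pseudocount of 0.5, which compresses changes of so low a gene. Over the alternatives the value ran between -2.13 and -0.83, and no test of it is given.

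Map3k15, whose values in every library are given with its LPS response, was lower in dKO cells. All dKO libraries lay below all WT libraries at 0, 1 and 6 h, and the groups overlapped at 2 h through the library labelled dKO 2 h replicate 4. Over the 4 times the log2 change was -0.87 ± 0.10 (adjusted p = 7.7e-08; -0.82 without the 5 libraries). The changes at 1 h (-0.96 ± 0.20) and 6 h (-1.29 ± 0.20) were called without any 1 library, whereas that at 2 h (-0.64 ± 0.20, adjusted p = 0.0349) was lost without any 1 of WT 2 h replicates 1, 3 and 4 or dKO 2 h replicates 1, 2 and 3 (0.0552 to 0.114). The call at 2 h was also lost in a fit of the 2 h libraries alone (0.295). Map3k14 was lower over the 4 times by a log2 change of -0.66 ± 0.15 (adjusted p = 0.00115; -0.58 without the 5 libraries). All dKO libraries lay below all WT libraries at 0, 1 and 6 h, and at 2 h, its lowest point in WT cells, the groups overlapped. Its log2 changes at 0, 1 and 6 h were -1.08, -1.0 and -1.11, and -0.75, -0.86 and -0.83 without the 5 libraries. Each of these 3 calls was lost on leaving out single libraries. The first was lost without any 1 of WT 0 h replicates 1 and 3 or dKO 0 h replicates 2 and 4 (adjusted p 0.0513 to 0.182), the second without any 1 of WT 1 h replicates 2, 3 and 4 or dKO 1 h replicates 1 and 2 (0.0708 to 0.125), and the last without WT 6 h replicate 4 or dKO 6 h replicate 4 (0.051 and 0.0795). The first was also lost in a fit of the 0 h libraries alone (0.0694).

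Map3k8, which led its tier after LPS, was called lower over the 4 times (-0.41 ± 0.14, adjusted p = 0.0273; -0.37 without the 5 libraries), a call lost under median-of-ratios scaling or quantile normalization. Its per-library values are given above: at 1, 2 and 6 h every dKO library lay below every WT library, and at 0 h the groups overlapped through the library labelled dKO 0 h replicate 2. At single times it was called at 2 h alone (-0.92 ± 0.28, adjusted p = 0.0295; -0.51 without the 5 libraries). That call was lost without any 1 of the 4 WT 2 h libraries or dKO 2 h replicate 2 (0.0583 to 0.14). Map3k10 encodes the mixed-lineage kinase MLK2. In dKO cells Map3k10 had 4.42, 3.35, 5.27 and 4.05 RPKM at 0 h, 2.98, 2.10, 3.47 and 3.42 RPKM at 1 h, 1.58, 3.76, 1.49 and 1.83 RPKM at 2 h, and 1.46, 2.08, 1.69 and 1.52 RPKM at 6 h. In WT cells Map3k10 had 4.40, 4.5, 5.65 and 5.29 RPKM at 0 h, 4.12, 4.30, 5.12 and 4.77 RPKM at 1 h, 1.75, 2.78, 2.74 and 2.33 RPKM at 2 h, and 2.87, 2.87, 2.69 and 2.99 RPKM at 6 h. The groups did not overlap at 1 and 6 h, and they overlapped at 0 and 2 h, with the library labelled dKO 2 h replicate 2 the highest at 2 h. Its log2 change was -0.39 ± 0.09 over the 4 times (adjusted p = 0.00192) and -0.62 ± 0.19 at 6 h (0.0243), or -0.40 and -0.59 without the 5 libraries. The call at 6 h was lost without any 1 of WT 6 h replicates 1 and 4 or dKO 6 h replicates 1 and 4 (0.0552 to 0.0663). Map3k1 (MEKK1), chosen after its values were seen because it was called higher at 2 h (0.65 ± 0.20, adjusted p = 0.0256; 0.34 without the 5 libraries), lost that call without any 1 of WT 2 h replicates 3 and 4 or dKO 2 h replicate 2 (0.0614 to 0.11).

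Among the Map4k genes, Map4k4, whose kinase can activate the JNK branch, was lower in dKO cells until the late time. It had 24.1, 25.6, 29.6 and 20.7 RPKM in dKO against 36.2, 36.1, 44.5 and 38.2 RPKM in WT cells at 0 h, and 25.3, 25.2, 26.3 and 25.2 RPKM against 44.7, 40.7, 50.7 and 48.0 RPKM in WT cells at 1 h. At 2 h it had 28.0, 22.5, 31.7 and 18.4 RPKM in dKO against 39.3, 43.8, 50.5 and 45.1 RPKM in WT cells, and at 6 h 20.8, 19.5, 24.5 and 25.8 RPKM against 22.2, 24.5, 27.6 and 23.2 RPKM in WT cells. The groups overlapped at 6 h alone. The log2 changes at 0, 1 and 2 h were -0.63, -0.83 and -0.84 (SE 0.13 each; adjusted p = 0.00252, 6.43e-05 and 5.98e-05; -0.64, -0.83 and -0.57 without the 5 libraries), none of them lost when any 1 library was left out. The first was lost under median-of-ratios scaling, and that at 2 h in a fit of the 2 h libraries alone (0.0743). At 6 h the change was -0.11 ± 0.13 (0.638). Map4k3, the kinase GLK, was higher late. In dKO cells Map4k3 had 8.20, 6.90, 7.85 and 7.48 RPKM at 0 h, 5.78, 6.92, 7.39 and 6.87 RPKM at 1 h, 7.76, 8.85, 7.21 and 6.38 RPKM at 2 h, and 7.12, 6.22, 6.24 and 7.0 RPKM at 6 h. In WT cells Map4k3 had 6.73, 7.53, 7.90 and 7.64 RPKM at 0 h, 5.50, 5.93, 6.14 and 6.45 RPKM at 1 h, 5.83, 6.71, 5.99 and 5.29 RPKM at 2 h, and 4.20, 5.02, 4.55 and 4.18 RPKM at 6 h. The groups overlapped at 0, 1 and 2 h, and at 6 h every dKO library lay above every WT library. Its log2 change was 0.52 ± 0.11 at 6 h (adjusted p = 0.0012) and 0.25 ± 0.05 over the 4 times (0.000531), or 0.50 and 0.25 without the 5 libraries, and neither call was lost when any 1 library was left out. Map4k1, whose promoter is printed above, was at 0.08 ± 0.22 between genotypes over the 4 times (0.828), and Map4k2 had all dKO libraries below all WT libraries at 0 and 1 h.

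Of the MAP2Ks, Map2k3 was called. Its values are given with the LPS responses: all dKO libraries lay below all WT libraries at 0 and 1 h. The groups overlapped at 2 h through the library labelled dKO 2 h replicate 2 alone, and at 6 h through dKO 6 h replicate 4 alone. The library labelled dKO 1 h replicate 2 was the lowest at 1 h. The log2 change was -0.63 ± 0.16 at 1 h (adjusted p = 0.00728; 0.0512 without that library) and -0.35 ± 0.08 over the 4 times (0.000843), or -0.49 and -0.33 without the 5 libraries. The other p38 activator, Map2k6, was at 0.34 ± 0.16 over the 4 times (0.0985), and 0.39 and called higher without the 5 libraries. Map2k4, which encodes the JNK kinase MKK4 and was chosen after its values were seen, was called higher at 6 h. It had 29.1, 25.5, 27.4 and 77.0 RPKM in dKO against 19.8, 22.2, 21.0 and 18.9 RPKM in WT cells, where 77.0 RPKM was the library labelled dKO 6 h replicate 4. The log2 change of 0.78 ± 0.25 (adjusted p = 0.0362; 0.41 without the 5 libraries) was lost without any 1 of the 4 WT 6 h libraries or dKO 6 h replicate 4 (0.0531 to 0.238), with no filter on low values (0.0516) and with a block for the replicate number (0.056). The call was also lost in a fit of the 6 h libraries alone (0.127). Map2k1, Map2k2, Map2k5 and Map2k7 were not called between genotypes at any time or over the mean on all libraries. With the 5 left out, Map2k1 (-0.25) and Map2k2 (-0.11) were called lower and Map2k4 (0.27) higher over the mean, and Map2k5 (-0.03) and Map2k7 (0.03) were not called.

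Mapkapk3, which encodes the p38-activated kinase MK3, was called lower in dKO cells at 1 and 6 h and over the 4 times. At 0 h, too, every dKO library lay below every WT library. It had 73.0, 41.7, 72.7 and 70.8 RPKM in dKO against 81.6, 79.9, 78.9 and 82.1 RPKM in WT cells at 0 h, and 41.8, 34.0, 36.2 and 37.7 RPKM against 58.5, 59.2, 59.0 and 62.5 RPKM in WT cells at 1 h. At 2 h it had 28.4, 69.1, 31.6 and 21.2 RPKM in dKO against 47.8, 47.5, 49.4 and 52.5 RPKM in WT cells, and at 6 h 23.0, 23.5, 22.8 and 34.4 RPKM against 45.3, 43.7, 39.5 and 45.1 RPKM in WT cells. The groups overlapped at 2 h alone, through the library labelled dKO 2 h replicate 2. The log2 change was -0.67 ± 0.21 at 1 h (adjusted p = 0.0392), -0.75 ± 0.21 at 6 h (0.0153) and -0.58 ± 0.11 over the 4 times (9.39e-05). With the 5 left out these were -0.63, -0.89 and -0.60. The call at 1 h was lost without any 1 of the 4 WT 1 h libraries or dKO 1 h replicates 2, 3 and 4 (0.0692 to 0.11), under quantile normalization and with a block for the replicate number (0.0602). The ratio of Mapkapk2 to Mapkapk3 was 1.08 to 1.20 in dKO libraries at 0 h outside the 5, against 1.00 to 1.12 in WT libraries. At 1, 2 and 6 h it was 6.89 to 7.19, 11.8 to 14.7 and 6.75 to 8.48 in those dKO libraries, against 3.38 to 4.07, 6.39 to 7.39 and 3.27 to 4.00 in WT libraries, with no overlap at these 3 times. Mapkapk5 encodes the kinase MK5. In dKO cells Mapkapk5 had 16.3, 10.2, 15.0 and 15.4 RPKM at 0 h, 12, 10.4, 9.83 and 11.5 RPKM at 1 h, 8.65, 14.3, 11.3 and 11.6 RPKM at 2 h, and 12.4, 11.4, 12.7 and 9.21 RPKM at 6 h. In WT cells Mapkapk5 had 17.9, 16.7, 16.9 and 18.8 RPKM at 0 h, 12.4, 14.3, 13.3 and 13.4 RPKM at 1 h, 10.3, 10.7, 11.1 and 13.0 RPKM at 2 h, and 12.9, 14.4, 11.8 and 13.2 RPKM at 6 h. The dKO libraries lay below the WT libraries at 0 and 1 h, and the groups overlapped at 2 and 6 h.

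**Figure D4:**
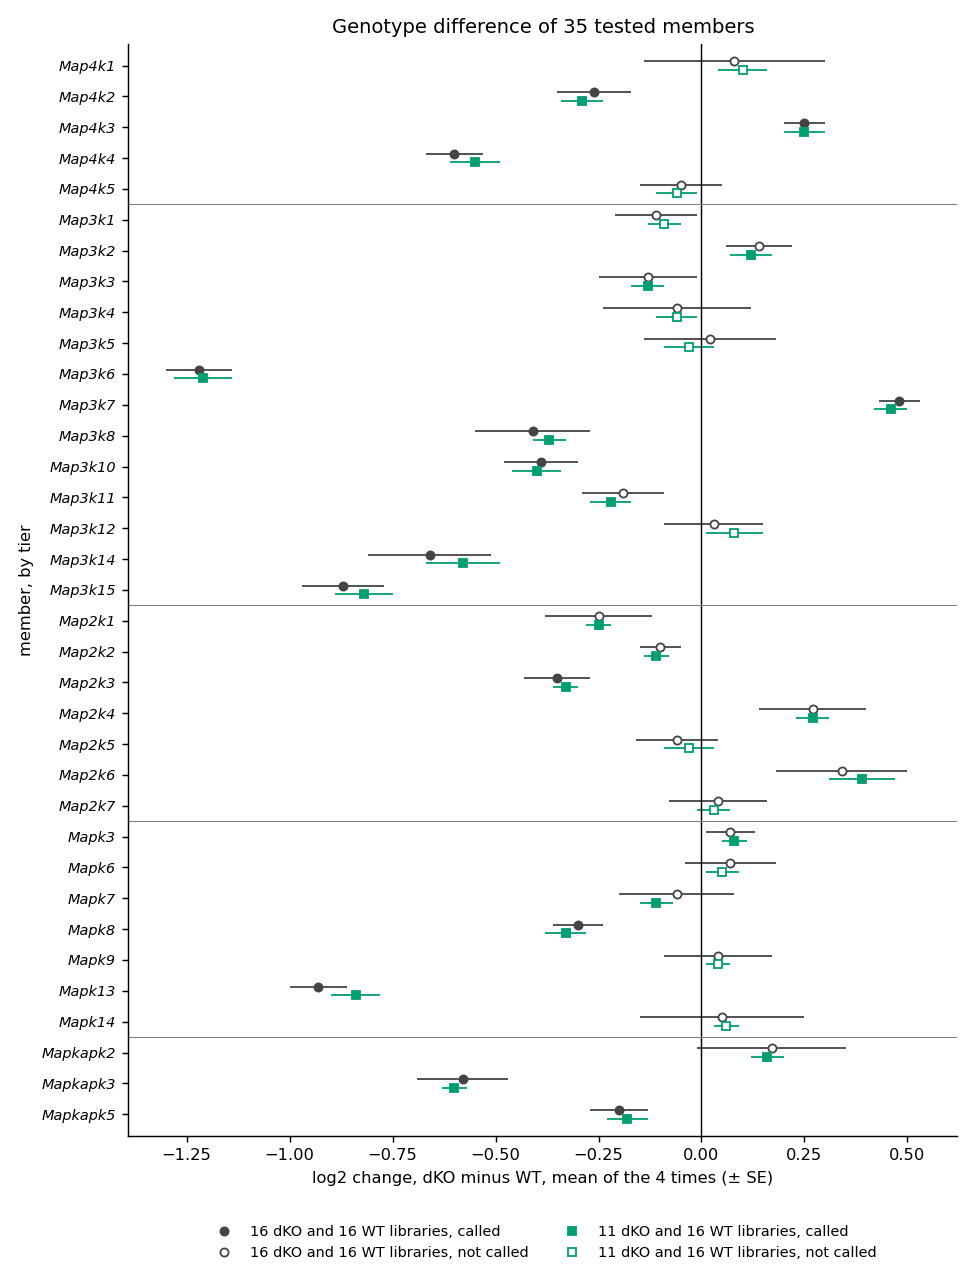
Log2 change, dKO minus WT, over the mean of the 4 times for 35 of the 36 tested members by tier, with SE bars. Dark circles use all 16 dKO and 16 WT libraries, green squares leave out the 5 dKO libraries nearest to another LPS time, and filled symbols are called; Map3k6 (-1.22, a member that entered only through WT libraries), Mapk13 (-0.93) and Map3k15 (-0.87) lie farthest to the left and Map3k7 (0.48) farthest to the right.

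Markers of cell types moved with genotype as well. In the mean over the 4 times, 7.73% of all genes were called higher and 23.4% lower in dKO cells. Of 7 dendritic cell markers 5 were called lower (Cd74, Flt3, Zbtb46, Ccr7 and Cd86). Of 6 macrophage markers 3 were higher, Csf1r and Mertk among them, and 1 lower (Emr1), with a sum of 561 to 1609 RPKM in dKO and 379 to 1214 RPKM in WT libraries. Of 4 tested neutrophil markers 3 were lower, with a sum of 158 to 331 RPKM in dKO and 341 to 1097 RPKM in WT libraries. All 4 tested mast cell and basophil markers (sum 3.37 to 8.47 RPKM in dKO and 6.76 to 18.0 RPKM in WT libraries) and 2 of 3 eosinophil markers (213 to 526 and 405 to 1263 RPKM) were lower. Under median-of-ratios scaling 3 dendritic cell markers were called lower, and under quantile normalization 6. Under either, macrophage markers were 3 higher and 0 lower, and 3 neutrophil, 3 mast cell and basophil and 2 eosinophil markers were lower. Without the 5 libraries 5 dendritic cell, 4 neutrophil, 4 mast cell and basophil and 2 eosinophil markers were lower. Macrophage markers were then 5 higher and 1 lower, where 61.4% of all genes were called. The B cell and NK cell markers stayed below 1 RPKM, as did 2 of 3 T cell and 2 of 3 stromal markers, and the erythroid gene Hba-a1 was listed at 0. The part of these markers in the genotype results was not tested.

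The difference between genotypes in the response to LPS was itself tested for each time. At 1 h limma called 0 of 36 members, with 0 at an unadjusted p below 0.05, beside 0.0359% of all genes. At 2 h it called 1 member (11 at an unadjusted p below 0.05), beside 0.305% of all genes, and at 6 h it called 2 (5), Map3k6 and Map3k7, beside 0.923%. On leaving out the 5 libraries 1, 5 and 13 members were called at 1, 2 and 6 h, beside 1.8%, 5.62% and 20.3% of all genes. The response of Mapk8 at 2 h, called higher than 0 h in WT but not in dKO cells, was smaller in dKO cells by 0.82 ± 0.18 on the log2 scale, a difference of -0.82 (adjusted p = 0.0312; -0.69 without the 5 libraries). It was called under each scaling, but lost without any 1 of the 4 WT 0 h libraries, WT 2 h replicates 2, 3 and 4, dKO 0 h replicate 2 and dKO 2 h replicate 4 (0.0523 to 0.0962), and with a block for the replicate number within genotype (0.0527). The call was also lost with a pseudocount of 0.1 (0.0596) and in a fit of only the groups compared (0.384). The 6 h response of Map3k7, negative in WT cells, differed by 0.63 ± 0.14 (adjusted p = 0.0233; 0.53 without the 5 libraries, also called). It was not called under median-of-ratios scaling or quantile normalization, and it was lost without any 1 of WT 0 h replicates 2 and 4 or WT 6 h replicates 1 and 3 (0.0563 to 0.061) and with the block within genotype (0.0712). For Map3k6, which entered through WT libraries at 0 and 1 h, no test of the difference is read. Mapkapk3 was among those called without the 5 libraries at all 3 times, with differences of -0.47, -0.55 and -0.74.

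Other genes of the pathway were counted in 6 lists. Among the dual-specificity phosphatases that switch MAP kinases off, 8 of 10 were tested, and 5 were called higher and 2 lower in WT cells at 1 h, 4 and 2 at 2 h, and 5 and 2 at 6 h (5 and 2, 5 and 2, and 6 and 2 under either other scaling). Dusp2 had 0.0650 to 0.375 RPKM in WT cells at 0 h and 26.9 to 30.4 RPKM at 1 h, a log2 change of 5.44. Its WT libraries at 0 h were all below the 1 RPKM of the filter, so this change is a description with no test, although the counts include it. Dusp6, which acts on ERK, fell by 3.26 on the log2 scale at 1 h. Over the 4 times 4 of the 8 were called lower in dKO cells, among them Dusp4 (-1.21), Dusp5 (-0.63 ± 0.15, adjusted p = 0.0013) and Dusp2 (-1.01 ± 0.36, 0.0332), at -1.21, -0.56 and -0.95 without the 5 libraries. The calls on Dusp2 and on the member not named were lost under both scalings. Dusp4 had 0.512 to 0.881 RPKM in dKO and 4.46 to 6.44 RPKM in WT cells at 1 h. Only WT libraries reached the 1 RPKM of the filter at that time, so its genotype change is given without a test, although the count includes it. Without the 5 libraries 6 of the 8 were lower.

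Among the binding partners of the kinases encoded by Map3k7 and Map3k8, Tab1, which encodes a TAK1 partner, fell in WT cells at 1 h by 1.98 and at 2 h by 2.95 on the log2 scale. Nfkb1, whose p105 product holds TPL2, rose by 0.96, 1.72 and 1.19 at the 3 times. Between genotypes 1 of these 6 partners was called, Tnip2, at 0.12 ± 0.04 (adjusted p = 0.0259; 0.11 without the 5 libraries, when 1 was called higher and 3 lower). Of the 7 tested kinases downstream of MAP kinases, 3 were lower in dKO cells over the 4 times: Rps6ka1 (-0.53 ± 0.15, adjusted p = 0.0057), Rps6ka5 (-0.42 ± 0.08, 8.58e-05) and Mknk2 (-0.37 ± 0.12, 0.0155), the second and last of them not called under quantile normalization. Of the 7 scaffolds and adaptors, Spag9 (-0.23 ± 0.09, 0.0488) and Arrb2 (-0.21 ± 0.08, 0.0468) were called lower, both lost under each scaling. Mink1 (-0.36 ± 0.11, 0.0155; lost under quantile normalization) was called lower among 4 tested kinases of the STE20 and MAP3K families without a Map symbol, and none of the 5 tested RAF and KSR kinases was called, against 2 higher without the 5 libraries. On leaving out the 5, the calls over the 4 times were 0 higher and 3 lower in the STE20 group, 2 and 4 among the scaffolds and 1 and 4 among the downstream kinases, where 61.4% of all genes were called. In WT cells at 2 h the counts were 1 higher and 3 lower of the RAF and KSR kinases, 0 and 3 of the STE20 group, 2 and 2 of the partners, and 1 and 5 each of the scaffolds and the downstream kinases, beside 11.2% higher and 68.5% lower of all genes. Under median-of-ratios scaling, where 30.7% and 31.1% of all genes were called, they were 1 and 1, 1 and 1, 4 and 1, 1 and 1, and 3 and 3, in the same order.

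Several members overlap other entries on the genome, and the library kit did not mark strand. The Cdkn2d entry as deposited spans Map2k5, Map2k1, Mapk6 and Mapkapk3 on chromosome 9 and averaged 0.616 RPKM, against 5.41, 86.9, 28.1 and 49.8 RPKM for these members. Map4k5 (2.66 RPKM) overlaps 2 entries at 0.0102 and 0.0120 RPKM, Map2k4 overlaps Mir744, and Map2k1 also overlaps Uchl4.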

How the data were processed

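Per the labels' protocols, RNA was extracted with Trizol and sequenced from TruSeq RNA libraries, whose kit does not mark strand. The authors deposited, for each library, an RPKM value and a base-coverage signal per gene. CASAVA 1.8.2 and the mm9 build are named in the submitters' processing notes, and aligner settings and annotation are not given in the sources used here. The signal served for depth only (1.27 to 1.87 Gb per library). Read counts are not used here, so no counting interval is given, and 92 spike-in entries were left out.

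Genes with at least 1 RPKM in 4 or more of 32 libraries (11154 of 22216) entered a limma trend fit of 8 group means on log2(RPKM + 0.5). Fold changes are on that scale, which understates the change of low genes. All groups shared the same estimate of the spread for a gene, so the SE and p-value of a WT contrast also hold the spread of dKO libraries. There were 14 contrasts, two-sided, adjusted by Benjamini-Hochberg over all genes, and a gene was called at an adjusted p below 0.05 (24 residual and 3.55 prior degrees of freedom). The procedure was tested on simulated data drawn with the spread of the WT libraries. That test held no library nearest to another LPS time, so it does not show how the fit handles such dKO libraries. Tools were R 4.3.3, limma 3.58.1, Python 3.11.15, pandas 2.3.3, numpy 2.4.6 and scipy 1.17.1. Promoter windows came from RefSeq on GRCm38.p6, and all other positions from the deposited mm9 tables.

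Alternatives were quantile normalization, median-of-ratios scaling, a pseudocount of 0.1 or 1, a filter at 5 RPKM or none, only the groups compared, array weights, a block for the replicate number, and each library left out in turn. Leaving out the 5 dKO libraries was chosen after seeing the data. Members, lists and tests were chosen with earlier results of these data known. Values in every library are given for members called between genotypes in the mean or at 2 or more times, for the 4 highest and 4 lowest called members of each WT LPS contrast, and for members called in a difference of response. In the lists of other pathway genes, up to 3 genes of smallest adjusted p were named per list and contrast. The labels do not say that a replicate number marks a shared culture or animal: same-numbered libraries of the 2 genotypes deviated together, at a correlation above 0.1, in 1 of 16 pairs. Values of 1 tested member are not reported here, and it is left out of the figures.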

Additional observations from a re-analysis of the deposited data

Results flagged for a closer look

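Within each group of 4 libraries, a library was picked out where the gap to its nearest neighbour, over the whole range, passed Dixon's 95% critical value for 4 values. Of 208 groups of the 26 named members, 24 held such a library, 20 of them 1 of the 5 dKO libraries nearest to another LPS time. Chance gives about 1 in 20 groups. No explanation was tested.

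The library labelled dKO 0 h replicate 2 stood above its group for Map3k8 (29.8 RPKM), Mapk6 (29.9), Mapk8 (2.74) and Mapkapk2 (247), and below it for Map2k3 (28.0) and Mapkapk3 (41.7). The library labelled dKO 1 h replicate 2 was high for Map3k5 (9.97 RPKM) and low for Map3k4 (0.737), Map2k6 (1.03) and Mapk13 (5.54). The library labelled dKO 2 h replicate 2 was high for Map3k4 (6.16 RPKM), Map3k7 (13.4), Map3k10 (3.76) and Map2k3 (39.0), and dKO 2 h replicate 4 was high for Map2k1 (165 RPKM). The library labelled dKO 6 h replicate 4 was high for Map4k1 (10.0 RPKM), Mapk14 (23.5), Mapkapk2 (444) and Mapkapk3 (34.4), and low for Map2k1 (59.9). Elsewhere, dKO 1 h replicate 3 was high for Map4k4 (26.3 RPKM) and Map3k6 (0.325), WT 1 h replicate 3 was low for Map3k8 (36.5 RPKM), and WT 1 h replicate 4 was high for Mapkapk3 (62.5 RPKM).

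The response to LPS was called different between genotypes, dKO minus WT, for Mapk8 at 2 h (-0.82 on the log2 scale, adjusted p = 0.0312 in limma) and for Map3k7 at 6 h (0.63, 0.0233). Of these, Mapk8 was also called under both other scalings, and Map3k7 under neither. The Mapk8 call was lost with a pseudocount of 0.1 (0.0596) and in a fit of only the groups compared (0.384). Both calls were lost on leaving out single libraries and with the block within genotype, as given above.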

How the results depend on the processing

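None of the 103 named calls changed sign, although other members called lower under LPS turned under a scaling, as counted above. Some WT LPS calls among the 103 were taken in because they held under all 3 scalings. Their outcome under a scaling was therefore fixed in advance. Counts below are of members called, for the genotypes at 0, 1, 2 and 6 h and their mean (4, 8, 8, 9 and 14 as reported), for LPS in WT and dKO cells, and for the difference in response at 1, 2 and 6 h (0, 1 and 2). Without the 5 libraries the genotype counts were 14, 21, 18, 21 and 25, WT 1 h 31, dKO 1 h 28 and the differences 1, 5 and 13. With array weights they were 16, 22, 15, 19 and 24 (beside 33.2%, 43.5%, 26.2%, 43.2% and 60.3% of all genes), WT 1 h 31 (83.5%), dKO 1 h 28 (79.9%) and the differences 1, 5 and 12 (2.76%, 4.05% and 20.8%). Median-of-ratios scaling gave 8 for dKO 1 h and 2 and 0 for the differences at 2 and 6 h, and quantile normalization 10 for dKO 1 h, 15 for dKO 2 h and 3 and 0. A pseudocount of 0.1 gave 0 and 1 for the differences at 2 and 6 h, and so did a filter at 5 RPKM. Fitting only the groups compared gave 1 for the genotypes at 2 h, 31 for WT 1 h, 8 for dKO 1 h, 0 for dKO 2 h and 0 for the difference at 2 h. The mean of the 4 times uses all groups and has no such fit. The replicate block within genotype gave 0 for the differences at 2 and 6 h. Leaving out 1 library at a time gave 3 to 4, 4 to 7, 5 to 12, 6 to 9 and 12 to 19 for the genotypes, 12 to 14, 30 to 30 and 26 to 28 for WT, 8 to 20, 18 to 29 and 23 to 29 for dKO, and 0 to 0, 0 to 2 and 0 to 2 for the differences. The cause of these changes was not tested.

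Deviations from the group mean of same-numbered libraries had a median correlation of 0.05 between genotypes. The 5 dKO libraries were kept in this check and shift the means of their groups. It therefore cannot tell whether the numbers pair the libraries. Within WT 16 of 24 pairs exceeded 0.1 (median 0.14), and within dKO 5 of 24 (-0.07). The block on the number moved no genotype count by over 1.5 times and lost Mapkapk3 at 1 h (0.0602) and Map2k4 at 6 h (0.056). Within genotype it lost Mapkapk2 in WT at 6 h (0.0676) and the differences of Mapk8 (0.0527) and Map3k7 (0.0712). Of 103 named calls, all held without the 5 libraries, with array weights and with a pseudocount of 1. The 103 include calls on Map3k6, Map3k4, Map2k6 and Map3k12, which entered the fit through groups where they were high. Those calls are described with no test, and their holding is not read as support. Fitting only the groups compared lost 21 and kept 68, and calls over the mean have no such fit. The lost ones included Map3k14 at 0 h (adjusted p = 0.0694), Map3k7 (0.168) and Map3k15 (0.295) at 2 h and Map2k4 at 6 h (0.127). In dKO cells at 6 h they included Map3k15 (0.171) and Mapkapk2 (0.0594). Median-of-ratios scaling lost 13, quantile normalization 11, a pseudocount of 0.1 lost 3 and no filter 2. WT LPS calls taken in because they held under every scaling could not add to the losses under a scaling. Depth per gene in reads is unknown, so differences of genes below 1 RPKM, Map3k6 among them, carry an unknown counting error.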

Other observations

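The 5 members on the chromosomes of the targeted genes, by the deposited mm9 positions, did not behave alike. On chromosome 17, Mapk13 lay 5.42 Mb and Mapk14 5.45 Mb from Psmb8, Map3k4 21.8 Mb and Map4k3 46.6 Mb. Over the 4 times the log2 change, dKO minus WT, was -0.93 ± 0.07 for Mapk13, 0.05 ± 0.20 for Mapk14, -0.06 ± 0.18 for Map3k4 and 0.25 ± 0.05 for Map4k3. On chromosome 8, Map2k7 lay 104 Mb from Psmb10 and was at 0.04 ± 0.12. The part of position in these values was not tested.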
